A study of Mus musculus with 36 samples.

Results

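In mouse colonic tumours, 1330 of the 3940 Ago2-bound peaks in 3' UTRs (33.8%, 95% Wilson interval 32.3 to 35.2) carried neither an 8mer nor a 7m8 miRNA seed site in the authors' annotation. They are the peaks annotated utr3 or utr3* whose 2 entries for these sites are empty, out of 7730 merged peaks in the study. An 8mer or 7m8 site is called a strong site here, and a 7A1 or 6mer site a weak one. The other 2610 peaks in 3' UTRs had a strong site. The choice used only the annotation, no measured level.

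The RNA came from 12 colonic tumours of C57BL/6 mice, 6 labelled G12D and 6 labelled WT, with 3 of each in each of 2 batches. G12D mice carried K-Ras-G12D/+ and WT mice did not. Mice of both groups carried Halo-Ago2/+, Villin-CreER/+ and the floxed alleles Apc(fl/fl), so both lacked the tumour suppressor Apc wherever Cre acted. The Villin promoter drives the inducible Cre in gut epithelium, and an enema of 4-hydroxytamoxifen (4-OHT) at 8 to 12 weeks of age started the tumours. Tumour lawns along the colon were resected or scraped, so other cells of the gut wall can be present. Ago2 was pulled down through its Halo tag after UV crosslinking (HEAP, a form of CLIP sequencing), and the values are normalised read counts per peak. A peak's level combines the amount of its mRNA with how much of it Ago2 held, and in whole tumours fewer cells of a type and less RNA per cell cannot be told apart.

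Ago2 is the protein that holds a mature miRNA and, with it, the mRNA that the miRNA pairs with. Pairing is led by the seed, bases 2 to 8 of the miRNA. By the field's usual definitions an 8mer site pairs with all of the seed and has an A opposite base 1, a 7m8 site pairs with the seed alone, a 7A1 site pairs with bases 2 to 7 and has the A, and a 6mer site pairs with bases 2 to 7 alone. The first 2 classes are known to repress mRNAs more strongly, on average, than the last 2. The letters of the 4 classes of site are shown for miR-27a-3p, as DNA.
8mer: ACTGTGAA
7m8: ACTGTGA
7A1: CTGTGAA
6mer: CTGTGA

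The miRNAs below are those of the 6 families with the most weak sites among the peaks without a strong site, then let-7i and miR-200c, whose families had mostly strong sites, then those of the 3 families with a weak site in the highest peak of all, in Myc. The sequences are RefSeq's (GRCm38.p6), 5′ to 3′, with the seed in capitals. No 2 of them share a seed.
miR-27a-3p: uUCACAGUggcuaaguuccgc
miR-29a-3p: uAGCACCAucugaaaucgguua
miR-186-5p: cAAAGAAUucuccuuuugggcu
miR-16-5p: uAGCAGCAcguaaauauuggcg
miR-26a-5p: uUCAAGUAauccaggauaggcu
miR-141-3p: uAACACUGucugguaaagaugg
let-7i-5p: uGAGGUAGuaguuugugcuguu
miR-200c-3p: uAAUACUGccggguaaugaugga
miR-135a-5p: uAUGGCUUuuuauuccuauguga
miR-21a-5p: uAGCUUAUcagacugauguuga
miR-34a-5p: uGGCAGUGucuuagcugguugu
RefSeq gives 1 locus each for miR-27a-3p (chr8:84208727-84208747, plus strand), miR-29a-3p (chr6:31062673-31062694, minus), miR-186-5p (chr3:157544285-157544306, plus), miR-141-3p (chr6:124717917-124717938, minus), miR-200c-3p (chr6:124718324-124718346, minus), let-7i-5p (chr10:122985698-122985719, minus), miR-21a-5p (chr11:86584120-86584141, minus) and miR-34a-5p (chr4:150068473-150068494, plus), and 2 loci each for the others. miR-141 and miR-200c thus lie close together on chromosome 6, and their seeds differ.

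Most peaks without a strong site were not free of seed matches. A 6mer without a 7A1 site was annotated in 513 (38.6%), a 7A1 without a 6mer in 163 (12.3%), and both in 239. No site of any class was annotated in 415 (31.2%). Among the 915 with a weak site, 449 had sites of 1 family, 283 of 2 families and 183 of 3 or more. A 7A1 site was annotated in 30.2% (27.8 to 32.7) of peaks without and 30.3% (28.6 to 32.1) of peaks with a strong site, intervals that overlap. The 6mer class was less frequent, in 56.5% (53.9 to 59.2) against 65.3% (63.5 to 67.1), and these Wilson intervals do not overlap. A strong site of 1 family can contain a 6mer of another, as the 7m8 site of miR-16 contains the 6mer of miR-103/107. The part of this in the difference was not tested.

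The annotation names 88 miRNA families, and 87 of them had a measured miRNA in the Ago2-bound miRNA libraries of the same tumours. Their 156 measured miRNAs held 95.8% of the miRNA signal (94.8 to 96.9 over 12 libraries), and none of the 30 most abundant miRNAs lay outside them. A peak with no annotated site therefore lacks a seed match to the bulk of the miRNA that was bound to Ago2 in these tumours, as far as the annotation goes.

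The family with the most weak sites in these peaks was miR-27-3p, with 68 peaks, against 106 peaks in 3' UTRs that held a strong miR-27 site. miR-27 was also the third most abundant family, at 22676 ± 6376 normalised counts in G12D and 21425 ± 4818 in WT libraries (SD, n = 6 each). miR-29-3p followed with 56 peaks (200 strong), miR-186-5p with 49 (11 strong), miR-15/16 with 47 (201 strong), miR-26-5p with 46 (58 strong) and miR-141-3p with 44 (80 strong). let-7, a family of tumour-suppressor miRNAs in many tissues, had 36 such peaks and 259 with a strong site.

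The families thus differed in how often a match was strong. Of all 3' UTR peaks with any site of the family, the best site was strong in 74.4% for let-7, in 72.4% for the miR-17 family and in 71.3% for the miR-200c family. It was strong in 36.8% for miR-27 and in 33.7% for miR-26, although both families were among the 10 most abundant. It was strong in only 8.53% for miR-186-5p and in 7.02% for miR-375-3p. The 20 most abundant families had a median of 54.6%, and the other 67 a median of 30.5%. Over 87 families the rank correlation of miRNA level with this percentage was 0.44 (Spearman), a description across families that share peaks and libraries. A peak with only a weak site of 1 family can hold a strong site of another, and the percentages include such peaks. Of 182 peaks with only a weak miR-27 site, 68 had no strong site of any family. For miR-196-5p these counts were 243 and 20. The part of overlapping seeds in these percentages was not tested.

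**Figure D1:**
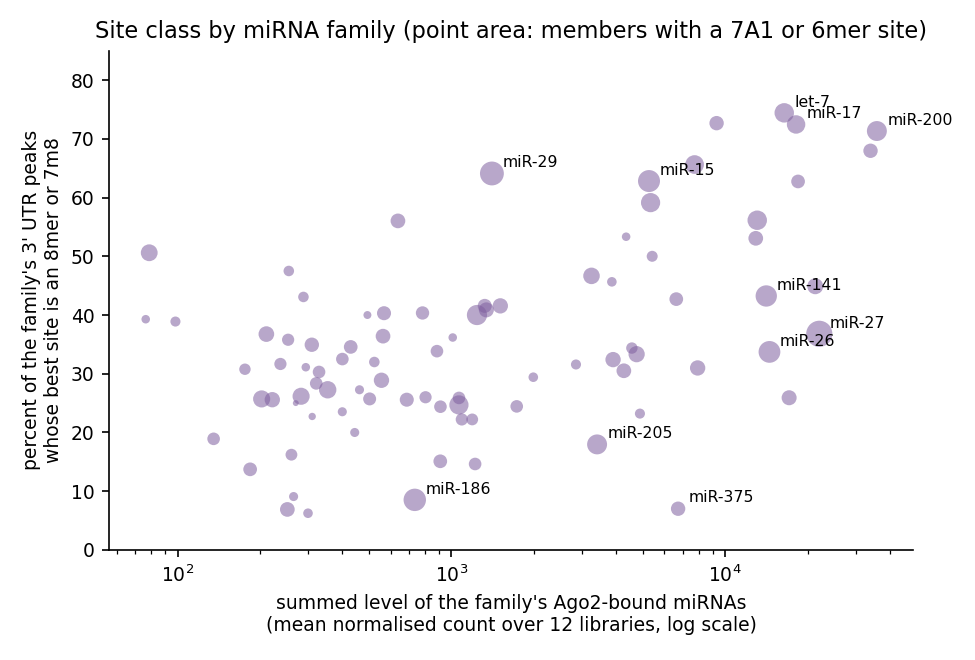
Each point is a miRNA family; the x axis is its summed Ago2-bound level (mean normalised count over 12 libraries, log scale), the y axis the percentage of its 3' UTR peaks whose best site is an 8mer or 7m8, and the area the number of peaks without a strong site that hold its weak site. let-7 lies highest at 74.4%, miR-27 has the largest point at 36.8%, and miR-186 and miR-375 lie low at 8.53% and 7.02%.

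Peaks without a strong site were lower than peaks with one. Their median mean level over the 12 libraries was 16.8 normalised counts (quartiles 11.7 and 26.8), against 20.8 (13.6 and 39.2) with a strong site. The order followed the site class, with medians of 14.6 for no site, 17.1 for a 6mer only, 17.3 for a 7A1 only and 18.6 for both, then 18.6 for a 7m8 only and 22.5 for an 8mer. Those with a 7A1 and a 6mer site and those with a 7m8 only therefore had medians that round to 1 value. A mean of at least 100 was reached by 50 peaks without a strong site, against 225 with one.

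Read by level instead, the peaks without a strong site made up 48.0% (43.1 to 52.9) of the lowest decile of 3' UTR peaks and 20.3% (16.6 to 24.6) of the highest decile. Those with no annotated site at all made up 19.5% (15.9 to 23.7) of the lowest decile and 5.33% (3.51 to 8.01) of the highest. Even so, 1 of the 10 highest 3' UTR peaks, 7 of the highest 50 and 19 of the highest 100 had no strong site.

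**Figure D2:**
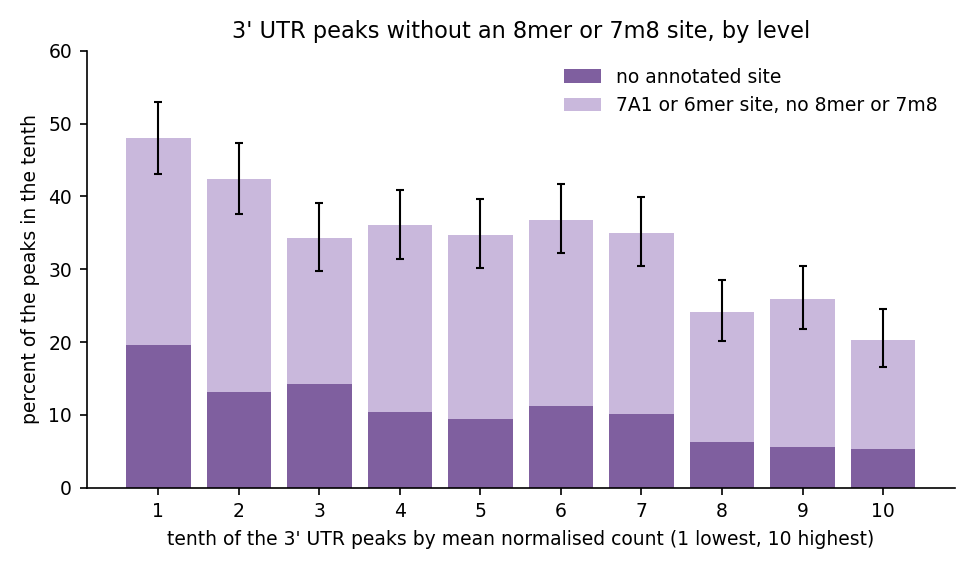
The 3940 peaks in 3' UTRs are split into deciles of 394 by their mean normalised count over 12 libraries (x axis); bars give the percentage of each decile (y axis) without an 8mer or 7m8 site, with the part without any annotated site in the darker colour, and error bars are 95% Wilson intervals for the whole bar. The bar is 48.0% in the lowest decile, between 34.3% and 36.8% from the 3rd to the 7th, and 20.3% in the highest.

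The difference was tested within each library, so that depth and normalisation were shared by both kinds of peak. The median log2(value + 1) of the peaks without a strong site minus that of the others was -0.29 ± 0.24 (SD, n = 12 libraries), and the exact sign-flip permutation test over libraries gave p = 0.00391 (two-sided, 0.0156 adjusted over 4 tests). This is the smallest p the test can give with the ties at 0. It was below 0 in 9 libraries and exactly 0 in the other 3 (G12D tumour 3 and WT tumours 2 and 5), where 1 read is worth 2.31, 1.89 and 4.53 normalised counts and many peaks share a value. Within batch 1 it was -0.21 (exact p = 0.125) and within batch 2 -0.37 (exact p = 0.0625). With 2 and 1 libraries at 0 these are the smallest p-values either batch can give, so neither could pass 0.05. The sets of peaks are the same in every library. The sign-flip p-values here and below therefore cover the spread between libraries, not that between peaks or genes.

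With means in place of medians, a choice made after the ties were seen, the difference was -0.40 ± 0.17 and below 0 in 12 of 12 libraries, from -0.67 to -0.15 (exact p = 0.000488, the smallest that 12 libraries can give). Peaks with no annotated site stood -0.59 from the strong-site peaks, and those with a weak site -0.32, each below with the same p. The peaks with no site were in turn lower than those with a weak site by a mean difference of -0.27 ± 0.32 (exact p = 0.00781, 0.0156 adjusted over 4 tests). That last difference, which also rests on the later choice of means, was below 0 in 8 of 12 libraries. It was -0.46 in batch 1 (exact p = 0.0625) and -0.077 in batch 2 (exact p = 0.25).

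Gene was held equal in 1 further comparison and width was held to a narrow range in another, both added after the first results. In 444 genes that had tested peaks of both kinds, the peaks without a strong site were lower than the strong-site peaks of their own gene by a mean difference of -0.65 ± 0.14 (SD, n = 12 libraries), again below 0 in 12 of 12 libraries (exact p = 0.000488). Peaks without a strong site had a median width of 57 bases, against 58. Among peaks of 53 to 61 bases, 612 without and 1389 with a strong site, the mean difference was -0.42 ± 0.14 (exact p = 0.000488).

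**Figure D3:**
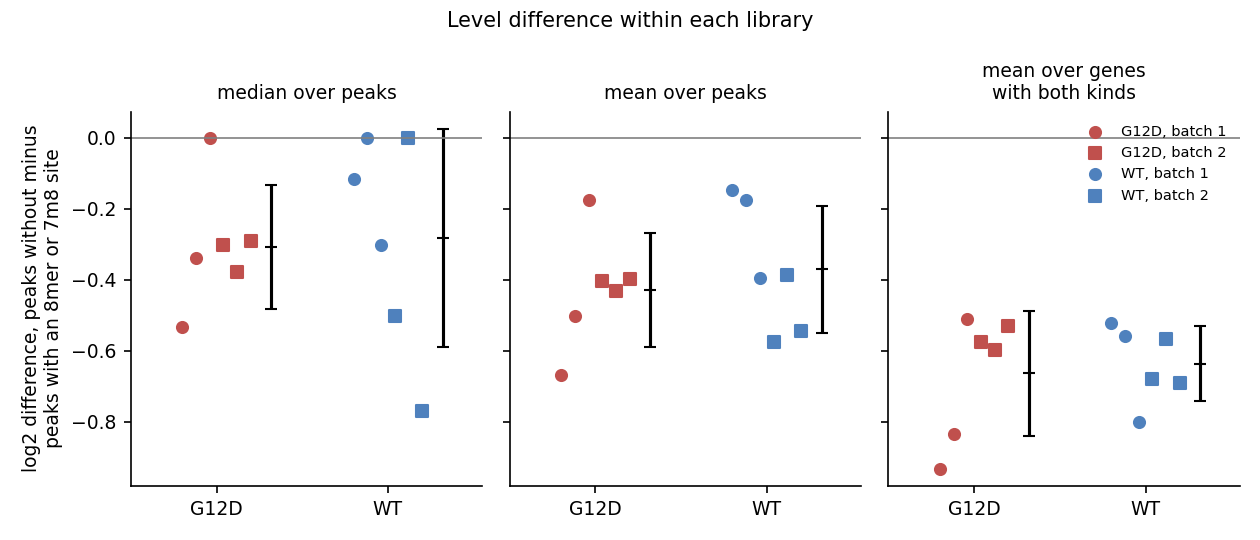
Each point is 1 library (circles batch 1, squares batch 2), and the y axis is the log2(value + 1) level of 3' UTR peaks without a strong site minus that of peaks with one; the black mark and bar give the mean ± SD of 6 libraries. Libraries lie at or below 0 for medians over peaks, and all 12 lie below 0 for means over peaks and for means within 444 genes, in G12D and in WT.

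The calling of peaks followed the same order, but it drew on the same tumours as the levels and is no separate support. The authors called 1 list of peaks from G12D and 1 from WT tumours. Of the peaks without a strong site, 19.8% (17.7 to 22.0) were in both lists, against 31.4% (29.6 to 33.2) with one. The G12D list alone held 78.1%, against 67.5%, and the WT list alone 2.11%, against 1.11%. The authors' score per peak, whose unit is not given, had a median of 4.43 against 6.02 within the G12D list and of 4.74 against 6.46 within the WT list. G12D libraries held 125384 to 974013 reads in peaks and WT libraries 30607 to 770237, and the part of this depth in the lists was not tested.

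Peaks without a strong site had near neighbours more often than strong-site peaks did. Another 3' UTR peak of any kind lay within 200 bases of 38.2% (35.6 to 40.8) of them, against 25.6% (24.0 to 27.3) of strong-site peaks, and another peak without a strong site within 200 bases of 20.3% (18.2 to 22.5). A strong-site peak lay within 200 bases of 26.0% (23.7 to 28.4) of them, and within 200 bases of 16.7% (15.4 to 18.2) of the strong-site peaks themselves, not counting the peak itself. For those with no annotated site the figure was 27.2% (23.2 to 31.7). The 1330 peaks lay in 960 genes. Of these genes, 507 had no strong-site peak in the 3' UTR and 453 had both kinds.

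Genes with many peaks without a strong site were RP23-230O9.4 (9 peaks, beside 5 with a strong site), Emp1 (8 and 1), and Ppp1r15b and Ccnd2 (7 each, beside 3 and 4). RP23-230O9.4 is the annotation's clone-based name. Emp1 encodes an epithelial membrane protein, Ppp1r15b a subunit of the phosphatase that acts on the initiation factor eIF2α, and Ccnd2 cyclin D2. The 8 peaks of Emp1 spread over 1939 bases (chr6:135381150-135383088). The cadherin gene Cdh1, whose product joins epithelial cells, had 5 peaks without a strong site and no 3' UTR peak with one.

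By function, genes of the colon epithelium had the highest share. In a list of 30 such genes, 14 had 33 peaks without a strong site and 10 had 18 peaks with one, so that 64.7% of their 3' UTR peaks had no strong site, against 33.8% over all. Among them were Cdh1, Epcam, Cdh17, the mucins Muc2, Muc3 and Muc13, the goblet-cell peptide gene Tff3, the chloride exchanger Slc26a3 and the factors Klf4, Klf5, Hnf4a and Elf3. Among lists with more than 2 peaks in 3' UTRs, genes of the miRNA machinery stood at the other end, with 5 peaks without a strong site, in Ago2, Ddx6 and Dicer1, against 24 with one (17.2%). The shares were 48.0% for Wnt target genes, 47.5% for MAPK output and feedback genes, 46.2% for the cell cycle, 55.6% for housekeeping mRNAs and 32.3% for RNA-binding proteins of 3' UTRs. In TGF-beta and BMP signalling 4 peaks were without and 12 with a strong site. Of 25 fibroblast and smooth muscle genes, 4 had 6 such peaks, and no leukocyte, endothelial or nerve gene had one; these last lists had 2 strong-site peaks each.

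The labelled tissue showed in all merged peaks. Of the 30 epithelial genes 26 had a peak, with a summed level of 9002 to 19742 normalised counts in G12D libraries and 1576 to 22848 in WT libraries. Of 25 fibroblast and smooth muscle genes 11 had a peak, with 507 to 1618 in G12D and 40.8 to 1227 in WT libraries. Only 2 of 25 leukocyte genes and 1 of 19 endothelial and nerve genes had any. WT tumours 5 and 6 stood apart by depth, with 30607 and 57037 reads in peaks, against 125384 or more in the other 10. They had no read in 63.9% and 38.4% of the peaks without a strong site, against at most 2.86% elsewhere, so results that rest on them are also given without them.

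The share of all 3' UTR reads that fell in peaks without a strong site was 26.4% ± 1.31 in G12D libraries and 26.2% ± 3.36 in WT libraries (SD, n = 6 each). The G12D libraries ran from 24.8% through a median of 26.3% to 28.7%, and the WT libraries from 21.2% (WT tumour 6, Wilson interval 20.7 to 21.7) through 27.2% to 29.2% (WT tumour 5, 28.3 to 30.2). The groups overlapped, and the lowest and highest libraries were the 2 shallow ones. The difference of 0.235 percentage points was within the spread between tumours (exact permutation test, two-sided, p = 0.870, and p = 0.89 with labels exchanged within batches). It was -1.32 within batch 1 and 1.79 within batch 2, which 3 tumours against 3 cannot separate at 0.05, since their smallest p is 0.1.

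The gap in level between the 2 kinds of peak did not separate the genotypes either. The within-library median difference was -0.31 ± 0.17 in G12D and -0.28 ± 0.31 in WT libraries (SD, n = 6 each). The genotypes differed by -0.025 on the log2 scale (exact permutation test, p = 0.868), with -0.15 within batch 1 and 0.10 within batch 2. In WT tumour 5 both medians were 0, so its gap of 0 is set by peaks without a read. Without it the WT value was -0.34 ± 0.31, and without WT tumours 5 and 6 it was -0.23 ± 0.22.

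Peak by peak, the level in G12D and WT tumours was compared by limma on log2(value + 1), adjusting for batch, over all 7527 peaks with a mean of at least 5. Of the peaks without a strong site 1313 were tested. None was called at an adjusted p of 0.05, nor was any peak in the whole table (percent called: 0). At an unadjusted p under 0.05, 412 were higher and 2 lower in G12D, 31.4% higher against 35.9% of all tested peaks. Without WT tumours 5 and 6 limma called 0 (background 0.0399%). Without WT tumour 4, a deep library with high levels, limma called 500 of the 1313, 3 of them lower. The background was then 45.3% of all tested peaks. This count depends on leaving out that 1 library, which leaves the shallow WT tumours 5 and 6 as the only WT tumours of batch 2. With 5 in place of 1 added before the log, limma called 48 (background 6.82%), and within batch 2 it called 39 (background 3.55%).

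Nearly all peaks leaned to G12D. The median log2 fold change (G12D over WT) was 1.31 for peaks without a strong site, 1.32 for those with one and 1.33 for all tested. Without WT tumours 5 and 6 it was 0.31, 0.39 and 0.38, within batch 1 0.24, 0.43 and 0.43, and within batch 2, which holds those tumours, 2.39, 2.24 and 2.29. With size factors estimated on the peaks themselves it was 0.04, 0.05 and 0.07. Single fold changes below are on the deposited scale and so include this common shift.

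**Figure D4:**
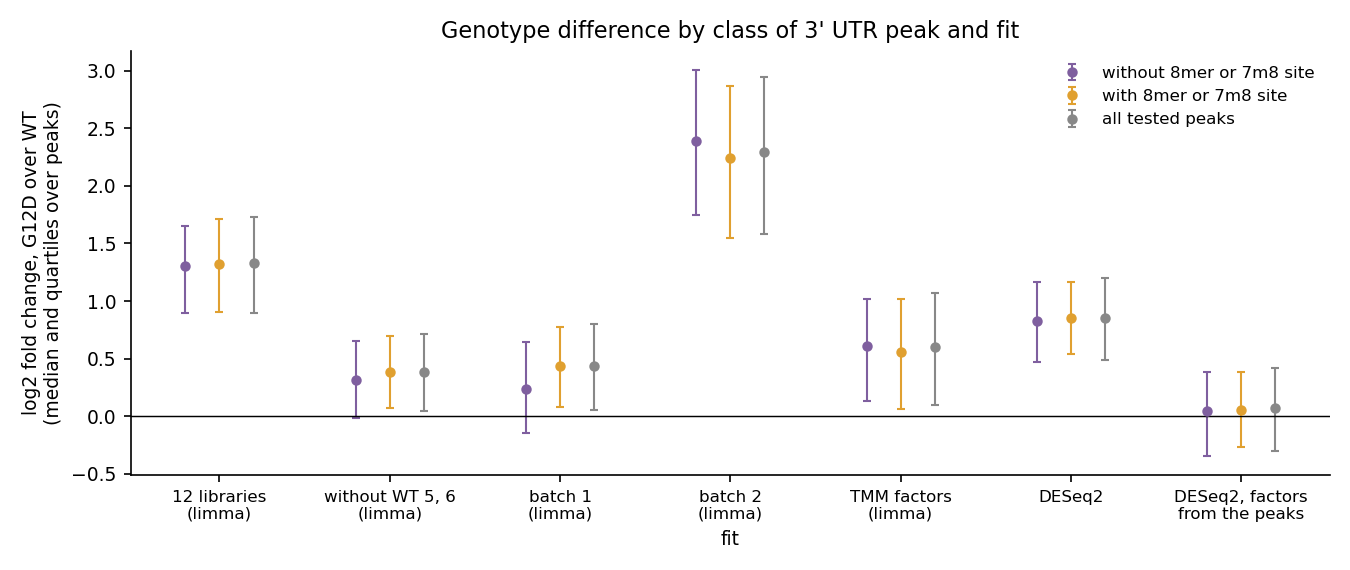
Points are the median log2 fold change (G12D over WT, y axis) and bars the quartiles over peaks without a strong site, peaks with one and all tested peaks, for each fit on the x axis. The 3 medians move together from fit to fit, at 1.31 to 1.33 for limma with 12 libraries, 0.61, 0.56 and 0.60 with TMM factors, and under 0.1 with size factors from the peaks; in batch 1 the peaks without a strong site lie lower (0.24) than the other sets (0.43 each).

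DESeq2 on the recovered reads gave the authors' own calls. In the authors' deposited table and in this refit, 93 peaks without a strong site were called higher in G12D (of 1329, against a background of 9.92% of all tested peaks) and 3 were called lower. In either direction this is 7.22%, against 10.3% of all tested peaks and 10.1% of strong-site peaks. With size factors estimated on the peaks the balance turned in the whole table, to 32 higher and 69 lower (1.32% in either direction). Among peaks without a strong site 4 were higher (0.301%, against 0.419% of all tested) and 13 lower (0.977%, against 0.904%). Of the 93, in 86 genes, 70 had a weak site and 23 none, and 79 came from the G12D list alone. A peak of 1 list alone entered the table through the genotype in which it was called, which favours a higher level there. Their log2 fold changes ran from 1.25 to 3.08 with a median of 1.64, to be read beside the common shift of 0.85 in that fit. Without WT tumours 5 and 6, 18 were higher (background 2.07%) and 2 lower (background 0.157%, and 2.22% in either direction), and 18 of these 20 were among the 96. edgeR called 3, Samd5 higher and Slc30a2 and Spock2 lower, against 10 over the whole table (0.133%). Every G12D library lay above every WT library for 23 of the 1313 peaks (1.75%), against 1.7% of all tested peaks.

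The highest peak without a strong site, and the highest 3' UTR peak of all, lay in Myc (chr15:61990008-61990078, plus strand, 71 bases). Myc encodes a transcription factor that drives growth and is a target of Wnt signalling. The peak held a 7A1 site of miR-135 and 6mer sites of miR-21 and miR-34, whose seeds are printed above. It had 1582, 3227 and 8295 normalised counts (lowest, median, highest) in G12D tumours, against 496, 812 and 2762 in WT tumours. All 6 G12D tumours lay above the WT median, and 3 lay above WT tumour 4, the highest of its group and of batch 2. Within each batch, all G12D tumours lay above all WT tumours for this peak. Its log2 fold change was 1.83 (SE 0.49, adjusted p = 0.108) by limma and 1.70 (SE 0.42, adjusted p = 0.00615) by DESeq2. Without WT tumours 5 and 6 DESeq2 gave 1.28 (adjusted p = 0.00473), and with size factors estimated on the peaks 0.74, which was not called (adjusted p = 0.0565).

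The second was in Hipk2, a kinase gene (chr6:38695921-38695980), with a 7A1 site of miR-27 and no other. It had 479, 825 and 1047 normalised counts in G12D, against 168, 403 and 829 in WT tumours. The groups overlapped, and its DESeq2 fold change of 0.77 (SE 0.49, adjusted p = 0.226) was under the common shift.

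The third, in Mfsd4 (chr1:132038752-132038805), a gene of the major facilitator family of transporters, separated the groups fully. It had 628, 804 and 1479 normalised counts in G12D, against 49.8, 240 and 425 in WT tumours. Its log2 fold change was 1.88 by DESeq2 (SE 0.47, adjusted p = 0.00604), and 1.46 (adjusted p = 0.000147) without WT tumours 5 and 6. With size factors estimated on the peaks it was 0.95 and not called (adjusted p = 0.084). It held a 7A1 site of the miR-17 family and a 6mer site of miR-7.

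The next 2 were in Irf2bp2, a transcriptional corepressor gene with 7A1 and 6mer sites of miR-194, and Myo1c, an unconventional myosin gene with 6mer sites of miR-328. Irf2bp2 had 365, 732 and 1545 normalised counts in G12D, against 36.2, 335 and 899 in WT tumours, and was not called. Myo1c had 234, 771 and 1708, against 112, 192 and 686 in WT, and was called higher by DESeq2 (log2 fold change 1.60, adjusted p = 0.0128), but not with size factors estimated on the peaks (0.59, adjusted p = 0.603).

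The highest peak with no annotated site of any class lay in Cdc34 (chr10:79688184-79688238, plus strand), the gene of a ubiquitin-conjugating enzyme of the cell cycle; it was picked out after the values were seen. It had 295, 705 and 1216 normalised counts in G12D, against 36.2, 145 and 636 in WT tumours. All 6 G12D tumours lay above the WT median, though only 3 lay above WT tumour 4, which is of batch 2. Within each batch, all G12D tumours lay above all WT tumours for this peak. DESeq2 called it higher (log2 fold change 1.66, SE 0.53, adjusted p = 0.0316), and so it did without WT tumours 5 and 6 (1.17, adjusted p = 0.0144). With size factors estimated on the peaks it was not called (0.81, adjusted p = 0.273).

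The rest of the 10 highest were Src, the gene of a tyrosine kinase, Xiap, an inhibitor of apoptosis, Itga3, an integrin subunit, and the kinase gene Pskh1. Src had a median of 463 normalised counts in G12D and 178 in WT tumours, Xiap 446 and 190, Itga3 452 and 168, and Pskh1 349 and 92.6. In none did the groups separate over both batches together. Within each batch, all G12D tumours lay above all WT tumours for Src and Pskh1, but not for Xiap and Itga3. DESeq2 called none of these 4 (adjusted p from 0.0551 to 0.103).

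**Figure D5:**
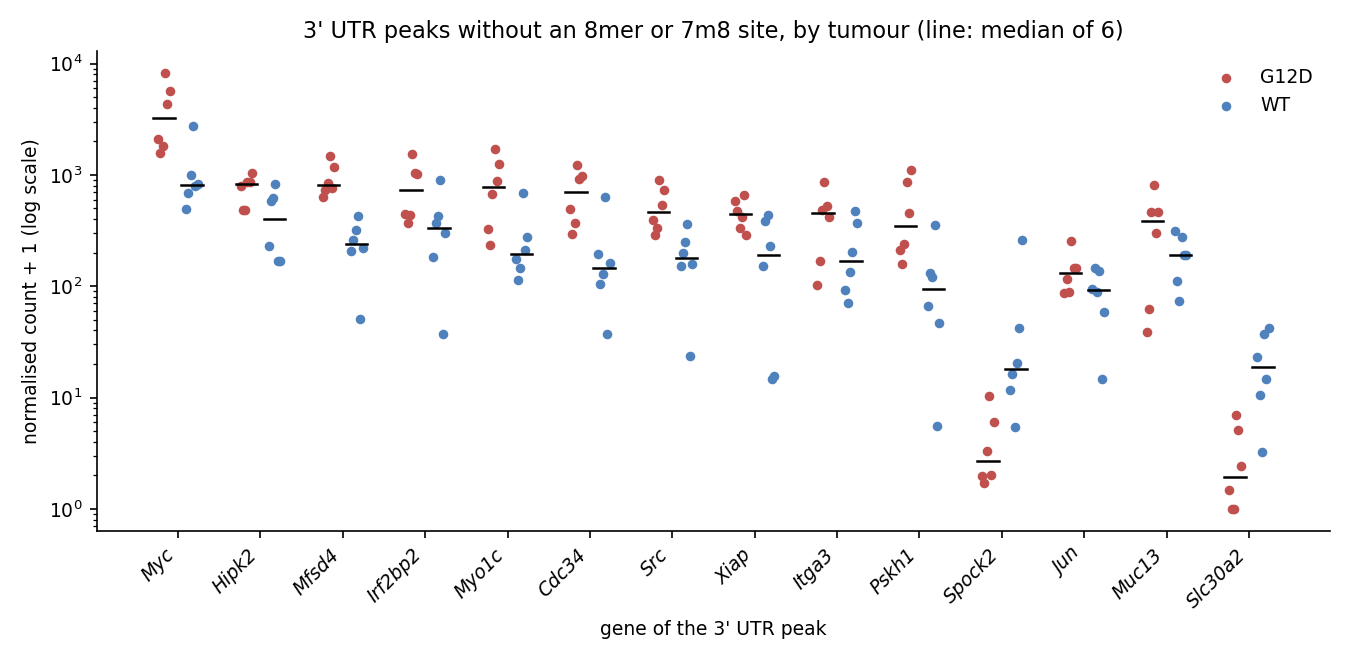
Points are the 6 G12D (left of each pair) and 6 WT (right) tumours for 14 peaks without a strong site, the y axis is the normalised count + 1 on a log scale, and the line is the median. Of these 14, which run from Myc to Slc30a2, G12D and WT points separate fully for Mfsd4; Myc is highest, with medians of 3227 and 812, and Spock2 and Slc30a2 are lower in G12D.

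Below the top 10, the peaks that DESeq2 called higher with the largest fold changes and a mean of at least 20 were in Bloc1s4, Car12, Necap2, S100a14, Pkdcc, Aff1 and S100a16, beside Mfsd4. S100a14, of a calcium-binding protein family, had 65.8, 83.4 and 143 normalised counts in G12D, against 0, 24.2 and 41.6 in WT tumours, with no overlap. S100a16, of the same family and the same cluster on chromosome 3, had 40.8, 119 and 215 in G12D, against 4.53, 29.7 and 52.3 in WT tumours. Neither peak had any annotated site. The DESeq2 fold changes were 2.10 (adjusted p = 0.0078) for S100a14 and 1.91 (adjusted p = 0.0106) for S100a16, and both were called without WT tumours 5 and 6.

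Car12, a carbonic anhydrase gene with 6mer sites of miR-181 and miR-375, had 41.7, 87.8 and 238 normalised counts in G12D, against 7.58, 15.1 and 49.9 in WT tumours. Its fold change was 2.21 (SE 0.49, adjusted p = 0.00223). Bloc1s4, which encodes a subunit of a complex for lysosome-related organelles, had a median of 51.9 in G12D and 6.76 in WT tumours, with 7A1 sites of miR-23, miR-141 and miR-27 together. Necap2 (an endocytic adaptor), Pkdcc (a secreted kinase) and Aff1 (a transcription elongation factor) had medians of 55.5, 41.1 and 91.0 in G12D tumours and of 7.92, 7.46 and 16.7 in WT tumours. Without WT tumours 5 and 6 the call was lost for Aff1 (adjusted p = 0.126) and remained for the other 6. With size factors estimated on the peaks, Car12, Bloc1s4 and Necap2 were still called, and S100a14 (adjusted p = 0.0974), S100a16 (0.154), Pkdcc (0.0767) and Aff1 (0.379) were not. Bloc1s4, Necap2, Pkdcc, Aff1 and S100a16 came from the G12D list alone.

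The 3 peaks lower in G12D all lacked any annotated site and all came from the WT list alone; 2 of them were picked out after the values were seen, being under a mean of 20. They thus entered the table through WT, where they were higher, so the way they were found favours this direction. The background for such calls was 0.355% of tested peaks. Slc30a2 (chr4:134353186-134353246), a zinc transporter gene, had 0, 0.951 and 5.98 normalised counts in G12D tumours, against 2.24, 17.8 and 41.0 in WT tumours. Its DESeq2 fold change was -3.68 (SE 0.65, adjusted p = 4.2e-05) and the call remained without WT tumours 5 and 6 (adjusted p = 0.000726). Spock2 (chr10:60133098-60133168), a proteoglycan gene, had 0.691, 1.67 and 9.40 in G12D, against 4.47, 17.2 and 260 in WT tumours, where WT tumour 6 gave the highest value. Its fold change was -3.97 (SE 0.74, adjusted p = 0.000104), and -2.64 (adjusted p = 0.0286) without WT tumours 5 and 6. Spop, the gene of a substrate adaptor of a ubiquitin ligase, had 0, 1.79 and 10.3 in G12D and 1.89, 2.60 and 49.8 in WT tumours, and was not called without those 2 tumours (adjusted p = 0.628).

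Within the gene lists, limma called no peak without a strong site. DESeq2 called Myc and Ccnd1 (cyclin D1) of 12 peaks in Wnt target genes, Plaur of 19 in MAPK genes, Ago2 of 5 in the miRNA machinery and Ccnd1 of 18 in the cell cycle, all higher in G12D, and none of the 33 in colon epithelium. These counts stand beside the 7.22% of peaks without a strong site and the 10.3% of all tested peaks that DESeq2 called, and with so few peaks they set no list apart. The limma medians of the lists ran from 0.86 for TGF-beta and BMP signalling to 1.52 for Wnt targets, against 1.31 for all peaks without a strong site. The highest epithelial peak, in the mucin gene Muc13, had no annotated site and had 37.6, 380 and 814 normalised counts in G12D, against 72.7, 189 and 310 in WT tumours, which overlapped. Jun, of the AP-1 transcription factor, also without a site, had 86.4, 130 and 255 in G12D, against 13.6, 90.7 and 146 in WT tumours.

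In the other lists the highest peaks without a strong site were in Dicer1 (median 21.2 in G12D and 8.16 in WT), Khsrp (80.4 and 32.6), Pfn1 (131 and 74.0), Cdkn1b (106 and 55.4), Acvr1b (35.7 and 21.9) and Sparc (16.5 and 18.8). In all 6 the groups overlapped and neither tool called them. The Dicer1 medians mix 2 batches. In batch 1 its peak had 6.22 to 6.94 in G12D and 5.59 to 9.47 in WT tumours. In batch 2 it had 35.5 to 45.3 in G12D tumours, against 51.4 in WT tumour 4 and 0 and 12.1 in WT tumours 5 and 6. The Dicer1 peak, on the mRNA of the enzyme that cuts miRNA precursors, held a 7A1 site of miR-103/107. The Cdkn1b peak, of a cell cycle inhibitor, held a 7A1 site of miR-21 and a 6mer site of miR-200.

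In these 4 genes with many peaks without a strong site, Emp1, RP23-230O9.4, Ppp1r15b and Ccnd2, the highest such peak was likewise called by neither tool. Emp1 stood out, with 4.82, 48.7 and 114 normalised counts in G12D, against 8.95, 23.6 and 861 in WT tumours, the last in the shallow WT tumour 5. Its limma fold change was -0.23, and 0.64 without WT tumours 5 and 6. RP23-230O9.4 had medians of 122 in G12D and 96.2 in WT tumours, Ppp1r15b 105 and 64.4, and Ccnd2 24.3 and 11.1.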

How the data were processed

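The authors deposited normalised counts (a signal: read counts divided by a size factor per library) for 7730 merged peaks, and likewise for 596 mature miRNAs. Peak columns are named by model and number alone; they were read as the mRNA libraries. The submitters' processing notes list STAR 2.5.2b, DESeq2 and 2 build names (mm10, GRCm38), without roles, and the sources used here name no peak caller. The authors' deposited log2 fold changes, p-values and per-peak score are named where used. Site classes, genes and regions are those of the deposited annotation, which lacks 145 merged peaks. Input libraries were not used here. Since no label ties a tumour number to 1 animal, the spread behind each p-value may in part be technical.

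Every deposited value was a whole multiple of 1 read (100% within 0.001 reads), so reads were recovered: 30607 to 974013 per library. The main test was limma-trend 3.58.1 in R 4.3.3, run on log2(value + 1) for peaks with a mean of at least 5 and adjusted for batch (Benjamini-Hochberg, 0.05). edgeR 4.0.16 and DESeq2 1.42.0 served as alternatives on those reads, and the scripts were tested on simulated data. limma fold changes are on the log2(value + 1) scale, where the added 1 draws ratios of low values toward 0. They were not smaller than those of DESeq2 throughout. The median over peaks without a strong site was 1.31 by limma and 0.83 by DESeq2. Comparisons over libraries used exact permutation (6 against 6, or labels exchanged within batches) or sign flips. Wilson intervals (95%) cover counting error only, and peaks of 1 gene are not independent. A miRNA family is the measured miRNAs of its name and seed.

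The peaks, lists and tests were chosen with earlier results of these data known. Peaks named are the 10 highest, up to 8 called higher and 8 lower by DESeq2 with the largest change and a mean of at least 20, the highest of each gene list and of the genes with most peaks, of which 1 is not reported here; others are said to be picked afterwards.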

Additional observations from a re-analysis of the deposited data

Results flagged for a closer look

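Dixon's 95% limit flags about 1 set in 20 by chance only for independent, normally distributed values. The 68 sets of 6 tumours examined mix 2 batches and reuse the same tumours, so that rate need not hold. In 12 of them the highest tumour passed the limit for standing apart from the other 5 of its group. In 8 of them it was WT tumour 4, among WT tumours: Myc had 2762 normalised counts there, Myo1c 686, Cdc34 636, Pskh1 350.1, Dicer1 51.4, Necap2 37.0, Bloc1s4 31.6 and Pkdcc 31.6. WT tumour 4 had 770237 reads in peaks, the most of its group, and is of batch 2. For all 8 peaks the G12D tumours of batch 2 also lay above those of batch 1. WT tumour 6 had 260.3 normalised counts for Spock2, and WT tumour 5 had 861 for Emp1; these are the shallow libraries. Among G12D tumours, S100a14 was highest in tumour 5, at 143, and Jun in tumour 4, at 255.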

How the results depend on the processing

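The number of peaks without a strong site called between genotypes was 0 in limma and depended on the setting: 96 by DESeq2, 20 by DESeq2 without WT tumours 5 and 6 (added after seeing the data), 17 by DESeq2 with size factors estimated on the peaks (4 higher and 13 lower, against 32 higher and 69 lower, or 1.32%, of all tested peaks), 3 by edgeR, 48 with 5 added before the log, 39 within batch 2, and 0 to 500 when 1 tumour was left out, the 500 without WT tumour 4. Their median log2 fold change of 1.31 became 0.043 with those size factors, 0.24 within batch 1, 2.39 within batch 2, and 0.89 to 1.63 when 1 tumour was left out. The lower level of these peaks within a library kept its sign in every setting but could not pass within batch 1 (-0.21) or batch 2 (-0.37), where ties at 0 leave too few libraries; leaving out 1 tumour gave -0.32 to -0.25. The gap between peaks with no site and with a weak site was -0.46 in batch 1 and -0.077 in batch 2, neither past the threshold, and -0.30 to -0.22 when 1 tumour was left out.

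The genotype difference in the share of reads, 0.235 points, was -0.267 without WT tumours 5 and 6, -1.32 in batch 1, -0.840 for peaks with no site, and -0.772 to 0.840 when 1 tumour was left out. The genotype difference in the level gap, -0.025, was -0.15 in batch 1, 0.10 in batch 2 and -0.12 to 0.031 when 1 tumour was left out. None of these passed a test.

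No pairing of the genotypes by tumour number was seen: correlations of same-numbered tumours ran from -0.516 to 0.306, and 1 of 6 correlated best with its own number. Each was compared with only the 3 WT tumours of its batch, so this check cannot exclude a pairing. With the replicate block, 0 peaks without a strong site were called, the median fold change was 1.31, and the share and the gap differed by 0.235 (exact p = 0.938) and -0.025 (exact p = 0.875).

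Named peaks whose fold change turned, none past a threshold, the cause not tested: with size factors estimated on the peaks, Dicer1 -0.57, Hipk2 -0.078, Itga3 -0.26, Jun -0.35, Muc13 -0.46, Ppp1r15b -0.25, RP23-230O9.4 -0.48 and Sparc -0.17; with TMM factors, Itga3 -0.073, Jun -0.16, Muc13 -0.63, Ppp1r15b -0.17 and RP23-230O9.4 -0.18; within batch 1, Dicer1 -0.095, Emp1 0.25, Jun -0.15, Muc13 -0.39 and RP23-230O9.4 -0.15; without WT tumours 5 and 6, Dicer1 -0.19 (DESeq2 -0.25), Emp1 0.64 (DESeq2 0.85) and Sparc -0.23. When 1 tumour was left out, Emp1 ran from -0.65 to 0.39, turning without G12D tumour 1 or WT tumour 5, and Muc13 from -0.0066 to 0.79, turning without G12D tumour 3.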
